A study of Mus musculus with 2 samples.

Results

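The genes of glycolysis and of the response to low oxygen were examined in single adipose tissue macrophages (ATMs). The set held 33 of the 31017 gene symbols in the count matrices, chosen by name as glucose and lactate carriers, glycolytic enzymes, and regulators and known targets of hypoxia-inducible factor 1 (HIF-1). All 33 were found; 32 had UMIs in both libraries and *Egln3* had UMIs in the HFD library alone. A UMI (unique molecular identifier) marks 1 captured mRNA molecule.

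Glycolysis splits glucose into pyruvate in the cytosol, and lactate dehydrogenase and the monocarboxylate transporters turn pyruvate into lactate and export it. HIF-1 is made of the oxygen-labile HIF-1α, encoded by *Hif1a*, and a stable partner; prolyl hydroxylases of the Egln family mark HIF-1α for destruction when oxygen is present, and stabilized HIF-1 binds short DNA elements with a core of RCGTG and raises many glycolytic genes. In macrophages, inflammatory activation is known to raise glycolysis and *Hif1a*, whereas resident macrophages are commonly described as relying more on oxidative metabolism.

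The cells were CD45+Lin-Ly6Clow/-F4/80+ macrophages sorted from enzymatically digested epididymal fat of adult male C57/BL6 mice. They came from 3 pooled mice kept on control diet (CD) and from 3 pooled mice given high fat diet (HFD) overnight, with 1 droplet library (10x Genomics, 3′ tags) per diet. No transgene is named for these mice, and individual mice could not be told apart within a pool. With 1 library per diet there is no replicate, so ratios are given with exact 95% intervals that cover counting error only, and no test of the diet was possible.

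Cells with 200 to 3500 genes and at most 10% mitochondrial UMIs were kept, which left 2364 of 4459 CD barcodes and 2021 of 3163 HFD barcodes. The CD cells were deeper, with a median of 4491 UMIs against 2792. The macrophage markers *Adgre1*, *Csf1r*, *Cd68*, *Fcgr1* and *Mertk* were all detected in both libraries, at a summed 1521 and 1041 CPM (UMIs per 1000000), and the lymphocyte list of 5 genes summed to 2.28 and 0.989 CPM, with *Cd3e* and *Ms4a1* at 0 in both. Stromal markers summed to 71.1 CPM in CD and 4.20 CPM in HFD, cycling markers to 44.0 and 14.8 CPM, and erythroid markers to 613 and 704 CPM. Genes of dissociation and heat shock, which digestion can raise, summed to 19446 CPM in CD and 19592 CPM in HFD. The libraries shared 14 barcodes, of which 10 were among the kept cells of each.

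To show where HIF-type elements stand in these genes, the 250 bases before each RefSeq start site (build GRCm38.p6) were searched for ACGTG on both strands. Of the 33 genes 32 matched an entry and 20 of them (62.5%) held the motif, against 18.5% of all 27025 genes of the table and 25.6% of the 8727 genes with at least 20 UMIs here. The members had 1.5 windows per gene and the expressed genes 1.28, so the shares are not over equal lengths of DNA. Members were also chosen in part as known HIF-1 targets, so a higher share follows in part from that choice and is no result. For GCGTG, the shares were 65.6% of members, 30.9% of all genes and 50% of expressed genes, and for the palindrome CACGTG, which contains ACGTG on both strands, they were 18.8%, 6.86% and 10.2%. The 6 windows printed here belong to genes that the results turn on: 4 that were higher in *Lyz1*-rich cells (*Slc2a1*, *Hk2*, *Pgk1* and *Slc16a3*), *Pfkfb3*, which was lower after HFD, and *Bnip3*, a HIF target with a CACGTG element that was not higher after HFD. Each is written 5′ to 3′ in the direction of the gene, and capitals mark ACGTG or its reverse complement. *Pfkfb3* has a second start site, whose window is not shown.
Slc2a1 promoter (chr4:119108495-119108744, plus strand): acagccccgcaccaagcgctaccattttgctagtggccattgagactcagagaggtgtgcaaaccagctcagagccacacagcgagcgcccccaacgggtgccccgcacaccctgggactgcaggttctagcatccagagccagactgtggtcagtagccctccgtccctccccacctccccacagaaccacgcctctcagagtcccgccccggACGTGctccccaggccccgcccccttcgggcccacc
Hk2 promoter (chr6:82774455-82774704, minus strand): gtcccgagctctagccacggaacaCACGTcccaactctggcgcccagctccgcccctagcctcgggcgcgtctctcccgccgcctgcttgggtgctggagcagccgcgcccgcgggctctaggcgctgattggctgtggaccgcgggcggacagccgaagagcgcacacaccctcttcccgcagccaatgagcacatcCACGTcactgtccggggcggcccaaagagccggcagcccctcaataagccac
Pgk1 promoter (chrX:106186850-106187099, plus strand): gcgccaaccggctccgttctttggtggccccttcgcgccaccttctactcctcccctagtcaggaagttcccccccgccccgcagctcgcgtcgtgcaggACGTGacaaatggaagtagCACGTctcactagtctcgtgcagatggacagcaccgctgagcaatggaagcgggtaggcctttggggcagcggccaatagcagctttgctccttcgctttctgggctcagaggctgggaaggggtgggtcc
Slc16a3 promoter (chr11:120948817-120949066, plus strand): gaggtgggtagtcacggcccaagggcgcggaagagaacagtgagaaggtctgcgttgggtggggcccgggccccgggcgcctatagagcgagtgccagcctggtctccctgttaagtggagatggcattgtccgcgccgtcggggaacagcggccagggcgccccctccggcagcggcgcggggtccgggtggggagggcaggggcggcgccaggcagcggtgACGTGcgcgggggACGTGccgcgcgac
Pfkfb3 promoter (chr2:11502091-11502340, minus strand): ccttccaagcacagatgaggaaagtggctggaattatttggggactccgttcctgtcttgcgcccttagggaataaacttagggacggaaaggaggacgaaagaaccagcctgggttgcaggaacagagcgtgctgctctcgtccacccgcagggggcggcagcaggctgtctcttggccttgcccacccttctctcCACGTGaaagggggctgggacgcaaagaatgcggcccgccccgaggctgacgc
Bnip3 promoter (chr7:138909507-138909756, minus strand): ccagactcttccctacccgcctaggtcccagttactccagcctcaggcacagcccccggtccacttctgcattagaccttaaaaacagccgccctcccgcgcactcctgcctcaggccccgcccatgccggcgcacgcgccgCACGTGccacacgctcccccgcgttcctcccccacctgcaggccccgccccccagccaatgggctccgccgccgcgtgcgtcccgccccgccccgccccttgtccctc
The *Slc16a3* window held ACGTG at 27 and 14 bases before the start, the *Slc2a1* window at 36 bases, and the *Hk2* window, on the other strand, at 226 and 52 bases. All 6 printed windows hold the motif. *Gapdh*, *Eno1* and *Pfkp*, also higher in *Lyz1*-rich cells, held no ACGTG in any of their windows, nor did *Pfkfb4* and *Pdk1*. Whether the motif goes with the *Lyz1* class was not tested. A match describes the letters only; no binding was measured, and the absence of a match says nothing of HIF-1 at that gene.

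The 33 genes together took up 0.251% of all UMIs in CD cells (30777 UMIs) and 0.276% in HFD cells (22301 UMIs). The plot of levels by library shows that a few enzymes made up most of this. Levels are molecules counted from 3′ tags, so CPM needs no division by transcript length, but capture can differ between genes.

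**Figure D1:**
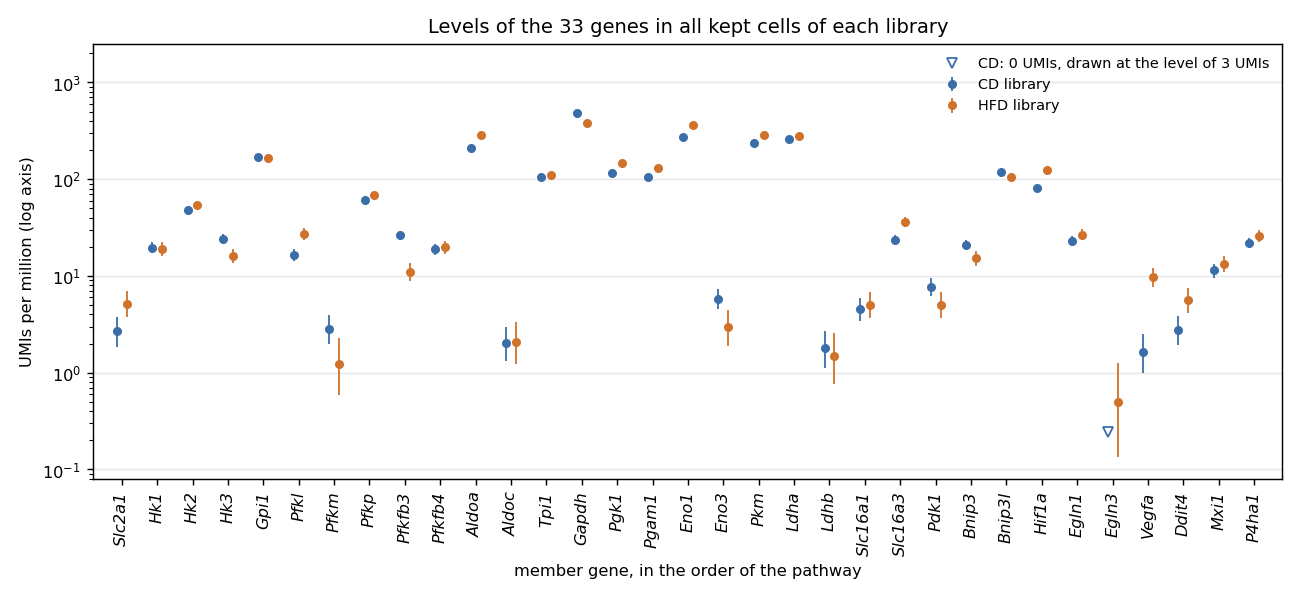
Level of each of the 33 genes in all kept cells, in CPM on a log axis, with blue points for the CD library, orange points for the HFD library and bars for the exact 95% Poisson interval (counting error only). *Gapdh* was highest in both libraries, at 479 CPM in CD and 382 CPM in HFD, and the open triangle marks *Egln3*, which had 0 UMIs in CD.

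*Gapdh*, the dehydrogenase that opens the energy-yielding steps, had 5884 UMIs in CD and 3086 in HFD. *Eno1*, the main enolase, followed with 276 and 368 CPM, then *Ldha* (lactate dehydrogenase A) with 258 and 282 CPM and *Pkm* (pyruvate kinase) with 239 and 288 CPM. *Aldoa*, the main aldolase, was at 210 and 284 CPM. *Gpi1*, the isomerase after hexokinase, was at 170 and 164 CPM, *Pgk1* at 117 and 146 CPM, *Pgam1* at 105 and 130 CPM and *Tpi1* at 105 and 112 CPM. *Hk2*, the largest hexokinase signal, was at 48.1 and 53.9 CPM, and *Pfkp*, the platelet-type phosphofructokinase, at 60.6 and 68.0 CPM. *Slc2a1*, the glucose carrier GLUT1, had 33 UMIs in CD and 42 in HFD, or 2.69 and 5.19 CPM. *Hif1a* was at 81.1 and 125 CPM. Many processed copies of *Gapdh* and other glycolytic genes stand in the mouse genome, and 3′ tags do not separate the splice forms of *Pkm*, so these levels are less certain than the counts alone imply. The symbol *Eno1b*, a near-identical copy of *Eno1*, had 19 and 14 UMIs beside 3390 and 2972 for *Eno1*.

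Some steps of the pathway rested mostly on 1 gene of a family. *Eno1* gave 97.9% of the enolase UMIs (*Eno1* and *Eno3*) in CD and 99.2% in HFD. Among the hexokinases, *Hk2* gave 52.4% of 1128 UMIs in CD and 60.5% of 721 in HFD. *Pfkp* gave 75.8% and 70.5% of phosphofructokinase UMIs. The prolyl hydroxylases were not led by a member: *Egln2*, which is outside the set, was at 41.9 and 36.2 CPM and *Egln1* at 23.0 and 26.7 CPM. *Egln3* had 0 UMIs in CD, where 3 UMIs would be 0.244 CPM, and 4 UMIs in 3 cells in HFD. The tissue-restricted relatives *Pfkm*, *Aldoc*, *Eno3* and *Ldhb* had between 10 and 71 UMIs in each library.

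The next question was how the genes divided among kinds of ATMs. Cells were classed by UMIs of single genes: *Lyve1* (resident ATMs), *Ccr2* (the chemokine receptor of monocyte-derived cells), *Lyz1* at 10 or more UMIs, *Plac8* (a monocyte gene) and *Trem2* (the receptor of lipid-associated macrophages). The classes overlap. Of the *Lyz1* class, 95.7% in CD and 89.7% in HFD were also Ccr2+. Of the Lyve1+ cells, 42.4% in CD and 37.1% in HFD were also Ccr2+, so these classes are not separate sets of cells. A list of other *Lyve1* cell markers (*Folr2*, *F13a1*, *Cd163*, *Gas6*, *Timd4* and *Fcna*) summed to 5591 CPM in Lyve1+ cells and 1142 CPM in the *Lyz1* class in CD, and to 3276 and 457 CPM in HFD. A cell without a UMI of the class gene may still express it, more so in shallow cells.

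Among the 5 classes, the summed share of the 33 genes was lowest in Lyve1+ cells and highest in the *Lyz1* and Plac8+ classes, in both libraries. In CD it was 0.212% in Lyve1+, 0.273% in Ccr2+, 0.304% in *Lyz1* and 0.323% in Plac8+ cells. In HFD the values were 0.224%, 0.291%, 0.315% and 0.313% in the same order. The *Lyz1* and Plac8+ intervals overlapped in both libraries. Trem2+ cells were at 0.230% in CD and 0.304% in HFD. Their HFD interval (0.2925 to 0.3151) overlapped those of the *Lyz1* and Plac8+ classes, so the top rank in HFD was not separated from them. Against all other cells of the same library, the Lyve1+ share was lower by a log2 ratio of -0.41 (95% interval -0.44 to -0.37) in CD and -0.36 (-0.41 to -0.30) in HFD. The *Lyz1* class was higher by 0.49 in both (0.46 to 0.52 in CD and 0.45 to 0.53 in HFD), which is 1.4-fold. The Ccr2+ class was higher by 0.48 and 0.36, and the Plac8+ class, with 42 and 73 cells, by 0.38 and 0.19. Stromal markers summed to 1922 CPM in the CD Plac8+ cells and 5.06 CPM in those of HFD, and cycling markers to 106 and 10.1 CPM; their part in the Plac8+ values was not tested. When cells of a single class were set against cells of no class, the Lyve1+ ratios shrank to -0.064 (-0.16 to 0.04) and -0.10 (-0.23 to 0.02), and the *Lyz1* ratios were 0.91 and 1.08. The single *Lyz1* class held only 14 CD and 55 HFD cells. Cells of no class were shallow, with medians of 2166 and 1223 UMIs, and the share rose with depth, as shown next.

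**Figure D2:**
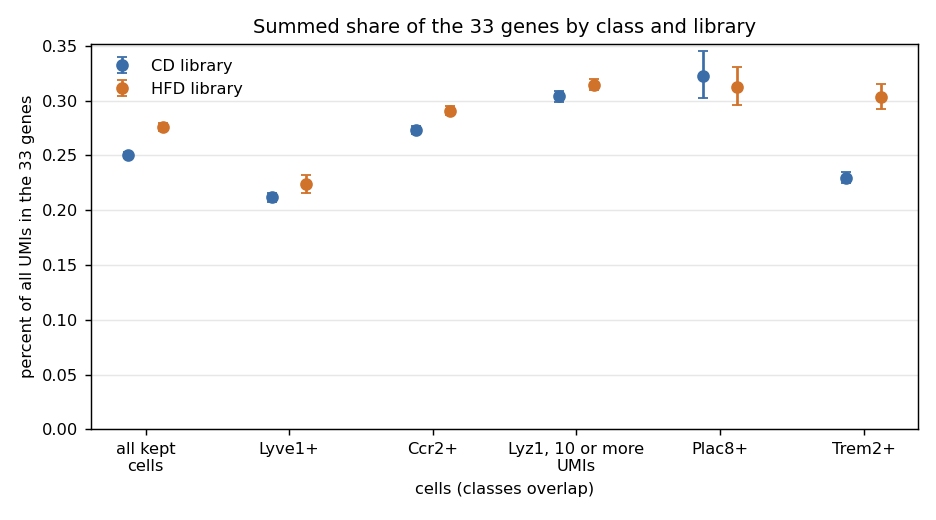
Percent of all UMIs that fell in the 33 genes (vertical axis) in all kept cells and in 5 overlapping classes (horizontal axis), with blue points for CD, orange points for HFD and bars for the exact 95% interval (counting error only). Lyve1+ cells were lowest in both libraries, and Trem2+ cells were at 0.230% in CD and 0.304% in HFD.

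The classes differed in depth, and the share rose with depth. The median was 8205 UMIs in the CD *Lyz1* class and 4053 in CD Lyve1+ cells, and 6609 and 2299 in HFD. Cells with 1000 to under 2500 UMIs had a share of 0.170% in CD and 0.177% in HFD, and cells with 10000 or more had 0.321% and 0.353%. Over the same bins the *Lyz1* class went from 2.27% to 79.0% of CD cells and from 8.47% to 90.2% of HFD cells. At like depth the class was still higher in the middle bins. From 2500 to under 5000 UMIs, the share was 0.248% in 75 *Lyz1*-class cells and 0.183% in 794 other cells of CD, and 0.262% in 155 and 0.203% in 294 cells of HFD. From 5000 to under 10000 UMIs it was 0.291% and 0.243% in CD, and 0.309% and 0.290% in HFD. At 10000 UMIs or more, the intervals of the CD cells touched, at 0.324% (0.316 to 0.331) and 0.310% (0.296 to 0.325), and in HFD the 12 cells outside the class were at 0.360% (0.330 to 0.392) and the class at 0.352% (0.342 to 0.362). From 2500 to under 5000 UMIs, Lyve1+ cells were below all others, at 0.181% against 0.204% in CD and 0.179% against 0.240% in HFD. From 5000 to under 10000 UMIs they were at 0.227% against 0.286% in CD. In HFD the intervals of that bin overlapped, at 0.291% (0.275 to 0.308) and 0.305% (0.299 to 0.311). Under 1000 UMIs the intervals of CD overlapped, at 0.213% (0.122 to 0.346) in 10 Lyve1+ cells and 0.175% (0.132 to 0.228) in the others. In HFD the 33 Lyve1+ cells of that bin were at 0.125% against 0.177%. From 1000 to under 2500 UMIs, Lyve1+ cells were at 0.159% against 0.182% in CD and 0.154% against 0.187% in HFD. At 10000 UMIs or more they were at 0.288% against 0.331% and 0.302% against 0.361%. The other cells here include those of the *Lyz1* class.

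**Figure D3:**
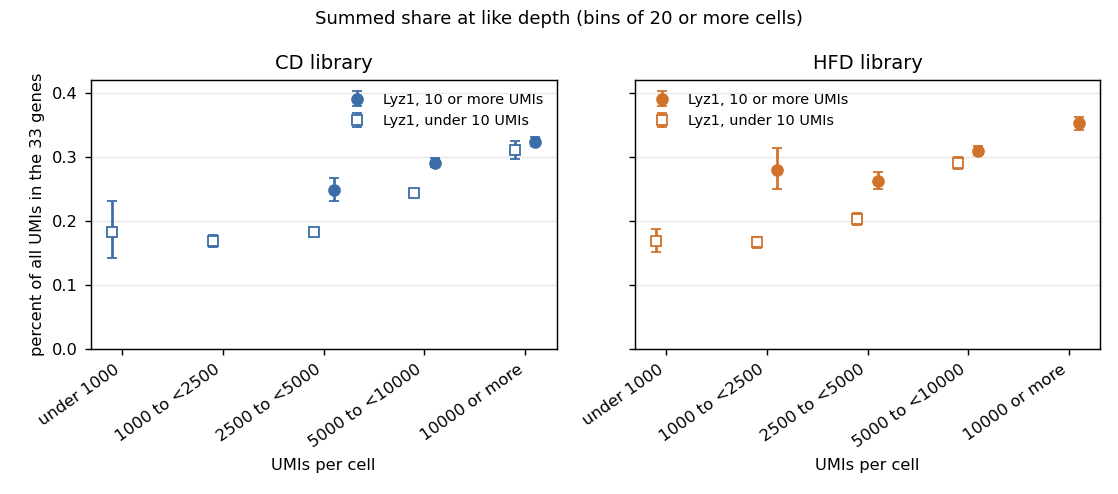
Percent of UMIs in the 33 genes (vertical axis) by UMIs per cell (horizontal axis), for cells with 10 or more *Lyz1* UMIs (filled circles) and other cells (open squares), with CD on the left and HFD on the right. Bars are exact 95% intervals for counting error only, and bins under 20 cells are left out; the deepest cells had the highest shares in both libraries, and from 2500 to under 5000 UMIs the *Lyz1* class stood at 0.248% and 0.262% above the other cells.

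Gene by gene, a member was counted as different in a class where it was at least 1.5-fold apart from the other cells, with an interval that left out no difference, in the same direction in both libraries. Of 29 members with enough UMIs to be read (at least 20 in each library), 9 were higher in the *Lyz1* class, whereas 3.76% of all 9717 genes were. Another 3 were lower, against 13.9% of all genes. In Lyve1+ cells 3 were lower (2.64% of all genes) and 0 higher (5.81%). In Ccr2+ cells 3 were higher (4% of all genes) and 3 lower (11%). In Plac8+ cells 1 was higher (1.45%) and 0 lower (0.978%), and in Trem2+ cells 0 were higher (0.803%) and 1 lower (1.17%). The median log2 ratio of the members in the *Lyz1* class was 0.14 in CD and 0.37 in HFD, beside -0.19 and -0.23 over all genes, and in Lyve1+ cells it was -0.29 and -0.30, beside 0.11 and 0.10.

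**Figure D4:**
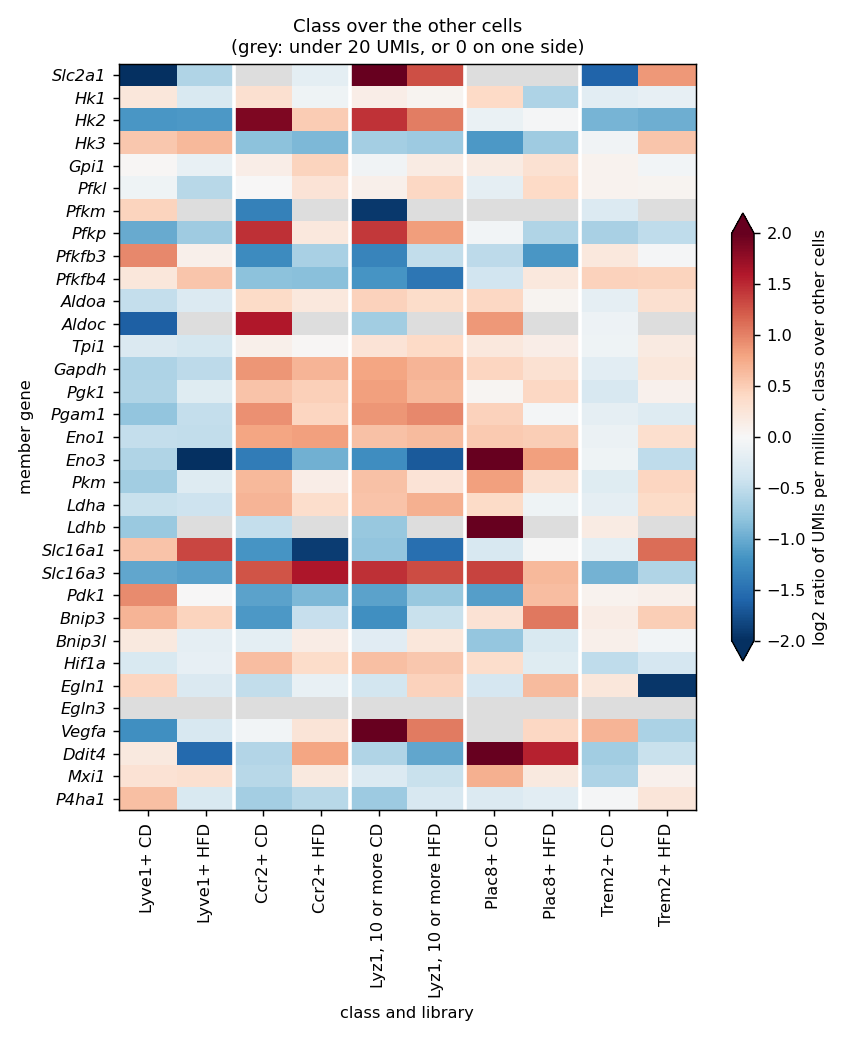
Log2 ratio of CPM in a class over all other cells (colour, capped at 2 in either direction) for each of the 33 genes (vertical axis) in 5 classes and 2 libraries (horizontal axis); red is higher in the class, blue is lower, and grey marks under 20 UMIs in all or 0 UMIs on one side. *Hk2*, *Pfkp* and *Slc16a3* are blue in both Lyve1+ columns and red in both *Lyz1* columns, and *Hk3* and *Pfkfb4* have the opposite colours.

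At full depth, genes for the entry and trapping of glucose separated the classes. *Slc2a1* had 26 of its 33 CD UMIs and 32 of its 42 HFD UMIs in the *Lyz1* class, at 5.46 against 0.93 CPM in CD and 6.96 against 2.86 CPM in HFD. *Hk2*, an inducible hexokinase on the mitochondrial surface, was at 78.6 CPM in the *Lyz1* class and 28.8 CPM in other cells of CD (log2 1.45, 1.20 to 1.69), and at 69.0 and 34.1 CPM in HFD (log2 1.02, 0.71 to 1.33). In Lyve1+ cells *Hk2* was at 28.3 CPM in CD and 26.9 CPM in HFD, against 63.5 and 59.5 CPM in the other cells. Cells were then thinned at random to 1000 UMIs and the classes set anew with the same UMI limits. The *Lyz1* class held 143 of 2312 CD and 271 of 1754 HFD cells, against 555 of 2364 and 672 of 2021 at full depth. Many of its cells thus moved to the other cells, so thinned ratios are of a stricter class as well as of shallower cells. The log2 ratio of *Hk2* in the thinned *Lyz1* class was 0.62 in CD (-0.56 to 1.61) and 0.09 in HFD (-0.85 to 0.93). These rested on 9 and 14 UMIs, so a difference was not detectable there. In Trem2+ cells it was also lower, at 29.3 against 56.0 CPM in CD and 29.2 against 57.1 CPM in HFD. *Hk3*, a hexokinase of myeloid cells, went the other way, at 17.6 CPM in the *Lyz1* class against 28.2 CPM in CD (log2 -0.68, -1.06 to -0.30) and 12.6 against 20.9 CPM in HFD (log2 -0.73, -1.25 to -0.21). As a share of all hexokinase UMIs, *Hk2* made up 35.8% in Lyve1+ and 67.1% in *Lyz1*-class cells of CD, and 40.7% and 68.3% in HFD. *Hk3* made up 37.0% and 15.1% in CD, and 35.2% and 12.5% in HFD. After the same thinning *Eno1*, *Gapdh*, *Pgk1* and *Pgam1* kept log2 ratios of 1.21, 1.18, 1.0 and 1.06 in the *Lyz1* class of CD and 0.81, 0.69, 0.88 and 0.77 in HFD. *Pfkp* was at 1.17 and 0.81. The thinned intervals of *Slc2a1* and *Slc16a3* in CD included 0, from 1 and 4 UMIs in the class. In HFD those of *Hk3*, *Pfkfb4* and *Vegfa* included 0, and in CD these 3 genes had no UMI in the class. *Hk1*, the constitutive form, was called in no class.

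Phosphofructokinase is the committed step. *Pfkp* was at 98.1 CPM in the *Lyz1* class against 37.0 CPM in CD, and 84.0 against 47.0 CPM in HFD, and it was lower in Lyve1+ cells, at 38.7 against 77.7 CPM in CD and 44.3 against 72.9 CPM in HFD. *Pfkfb4*, a bifunctional enzyme that sets the activator of phosphofructokinase, was at 10.7 against 24.2 CPM in the *Lyz1* class in CD and 11.3 against 30.9 CPM in HFD. It was also lower in Ccr2+ cells at full depth, at 15.5 against 27.3 CPM and 16.7 against 29.8 CPM. This call in Ccr2+ cells was lost after thinning, at log2 ratios of -0.55 (-1.57 to 0.37) in CD and -0.55 (-1.65 to 0.45) in HFD. *Pfkfb3*, the relative of *Pfkfb4*, was higher in Lyve1+ cells of CD at full depth, at 36.1 against 18.5 CPM. In HFD it was not, at 11.6 against 10.9 CPM. Thinned *Pfkfb3* was at log2 ratios of 0.23 (-0.49 to 0.91) in CD and 1.35 (-0.28 to 2.76) in HFD. These rested on 26 and 6 UMIs in the class, and the contrast between libraries was not seen there.

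In the lower part of the pathway, *Gapdh* was at 645 CPM in the *Lyz1* class against 374 CPM in CD (1.72-fold), and 455 against 285 CPM in HFD (1.60-fold). *Eno1* was at 347 against 231 CPM and 434 against 280 CPM, *Pgk1* (phosphoglycerate kinase) at 159 against 90.5 CPM and 173 against 111 CPM, and *Pgam1* (phosphoglycerate mutase) at 146 against 79.1 CPM and 165 against 84.2 CPM. *Gapdh* and *Eno1* were also higher in Ccr2+ cells, *Gapdh* at 553 against 301 CPM in CD and 419 against 262 CPM in HFD, and *Eno1* at 314 against 183 CPM and 410 against 231 CPM. Both calls in Ccr2+ cells were lost after thinning, with log2 ratios of 0.52 in CD and 0.18 in HFD for *Gapdh* and 0.16 and 0.34 for *Eno1*. *Eno3*, the muscle enolase, was lower in the *Lyz1* class, with 15 of 71 UMIs in CD and 7 of 24 in HFD, and 1 CD cell held 10 of its UMIs. *Gpi1*, *Tpi1*, *Aldoa*, *Pkm* and *Ldha* were called in no class at full depth. Thinned *Aldoa* and *Ldha* were past 1.5-fold in the *Lyz1* class of both libraries. *Aldoa* was then at a log2 ratio of 0.73 (0.22 to 1.20) in CD and 0.63 (0.30 to 0.96) in HFD. *Ldha* was at 0.70 (0.24 to 1.14) and 0.66 (0.30 to 1.01).

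At full depth, the 2 lactate carriers went in opposite directions in Ccr2+ cells. *Slc16a3* encodes MCT4, which exports lactate from glycolytic cells, and was at 38.9 against 14.1 CPM in the *Lyz1* class of CD (log2 1.46, 1.11 to 1.82) and 49.0 against 19.8 CPM in HFD (log2 1.31, 0.91 to 1.72). It was also higher in Ccr2+ cells, at 28.5 against 12 CPM and 43.2 against 14.1 CPM, and lower in Lyve1+ cells, at 14.9 against 30.5 CPM and 18.9 against 39.9 CPM. *Slc16a1* encodes MCT1, which carries lactate in either direction, and was lower in Ccr2+ cells, at 3.34 against 7.52 CPM in CD and 3.08 against 11.5 CPM in HFD. Of the UMIs of both carriers, *Slc16a1* gave 27.3% in Lyve1+ and 7.5% in *Lyz1*-class cells of CD, and 35% and 5.46% in HFD. Lyve1+ cells of HFD had 40 such UMIs in all. After thinning, *Slc16a1* in Ccr2+ cells was at -0.70 (-3.18 to 1.22) in CD and -0.61 (-2.45 to 0.97) in HFD. These rested on 3 and 5 UMIs in the class, so its difference was not detectable at that depth. Thinned *Slc16a3* was at 1.18 (0.26 to 2.10) and 0.71 (-0.18 to 1.59) in Ccr2+ cells. In Lyve1+ cells it was at -2.29 (-4.63 to -0.64) and -1.64 (-4.73 to 0.30).

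Among the HIF targets, *Vegfa* (a growth factor for vessels) was higher in the *Lyz1* class, at 3.36 against 0.532 CPM in CD, from 16 and 4 UMIs, and 12.4 against 6.02 CPM in HFD. *Ddit4*, an inhibitor of mTORC1 that stress induces, was higher in Plac8+ cells, with 4 of 34 UMIs in CD (14.6 against 2.50 CPM) and 6 of 46 in HFD (15.2 against 5.20 CPM), in the class whose CD cells held the stromal markers. *Hif1a* itself was at 102 against 67.7 CPM in the *Lyz1* class of CD (log2 0.60) and 145 against 99.1 CPM in HFD (log2 0.55), or 1.51-fold and 1.46-fold. *Bnip3* and *Bnip3l* (receptors for the removal of mitochondria), *Mxi1*, *P4ha1* and *Egln1* were called in no class.

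The high fat meal was compared with control diet next. Over all kept cells, the summed share was 0.276% in HFD and 0.251% in CD, a log2 ratio of 0.14 (0.11 to 0.16) or 1.10-fold. The mix of cells differed as well: Lyve1+ cells were 49.6% of the CD and 20.5% of the HFD cells, and the *Lyz1* class 23.5% and 33.3%. The part of this mix in ratios over all cells was not tested, and the ratios within classes that were read are given further on. Of 32 members with at least 20 UMIs, 6 were at least 1.5-fold higher in HFD (6.28% of all 11170 genes were) and 4 at least 1.5-fold lower (11.9%). All 10 had intervals that left out a ratio of 1, which held for 4.49% of all genes higher and 9.04% lower. The median log2 ratio was 0.16 over the members and -0.02 over all genes.

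**Figure D5:**
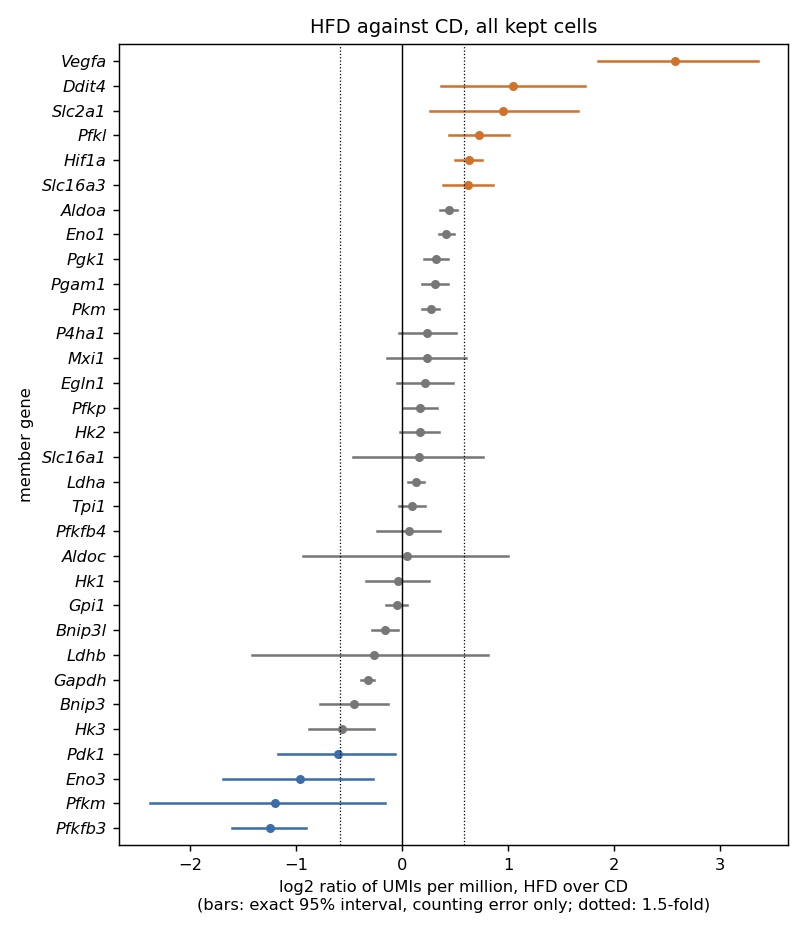
Log2 ratio of CPM, HFD over CD (horizontal axis), for the 32 members with at least 20 UMIs (vertical axis), over all kept cells, with bars for the exact 95% interval (counting error only) and dotted lines at 1.5-fold. Orange marks the 6 genes past that line in HFD, from *Slc16a3* at 0.62 to *Vegfa* at 2.57, and blue the 4 genes past it in CD, with *Pfkfb3* at -1.25.

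*Hif1a* was the most deeply counted gene of those called. It had 996 UMIs in CD and 1011 in HFD, which is 81.1 and 125 CPM (log2 0.62, 0.50 to 0.75). Its ratio was above 0 in every class, at 0.66 in Lyve1+ (71.5 to 113 CPM), 0.55 in Ccr2+ (90.2 to 132 CPM), 0.50 in the *Lyz1* class (102 to 145 CPM) and 0.70 in Trem2+ cells (62.4 to 102 CPM). In Plac8+ cells it was 0.05 with an interval of -0.67 to 0.80, from 28 and 42 UMIs. With every cell cut down at random to 1000 UMIs and 52 CD and 267 HFD cells left out, the ratio over all cells was 0.68, and 12.8% of HFD cells and 8.05% of CD cells had a *Hif1a* UMI, against 32.6% and 30.1% before thinning. Thinned *Hif1a* was at 0.58 (0.13 to 1.04) in Ccr2+ cells and 0.42 (-0.40 to 1.20) in Lyve1+ cells. The sort held no cell type that should lack *Hif1a*, so free RNA could not be gauged from this gene.

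*Vegfa* had 20 UMIs in 16 CD cells and 78 UMIs in 53 HFD cells, or 1.63 and 9.65 CPM, a 5.92-fold difference (log2 2.57, 1.84 to 3.35). It was higher in HFD in Ccr2+ cells, at 1.61 and 10.0 CPM, and in the *Lyz1* class, at 3.36 and 12.4 CPM. *Slc2a1* went from 2.69 to 5.19 CPM (log2 0.95, 0.26 to 1.65), and *Slc16a3* from 23.7 to 36.4 CPM (log2 0.62, 0.38 to 0.86), over all cells. Within the *Lyz1* class, which held most of their UMIs, *Slc2a1* was at 0.35 (-0.44 to 1.16) and *Slc16a3* at 0.33 (0.05 to 0.62), both short of 1.5-fold; in Ccr2+ cells they were at 0.40 (-0.35 to 1.16) and 0.60 (0.34 to 0.85). *Pfkl*, the liver-type phosphofructokinase, went from 16.5 to 27.2 CPM (log2 0.72, 0.44 to 1.0), and its share of phosphofructokinase UMIs from 20.7% to 28.2%. It was at 0.77 in Ccr2+ cells and 0.82 in the *Lyz1* class, and at 0.29 in Lyve1+ cells (-0.39 to 0.93). *Ddit4* went from 34 to 46 UMIs, 2.77 to 5.69 CPM (log2 1.04, 0.37 to 1.72), and was at 1.39 in Ccr2+ cells. After thinning, *Vegfa* was at a log2 ratio of 1.78 (0.20 to 3.62) from 5 and 13 UMIs, *Pfkl* was at a log2 ratio of 0.22 and *Slc16a3* at 0.49, and *Ddit4* turned to -0.60 from 10 and 5 UMIs.

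*Pfkfb3*, which makes the strongest activator of phosphofructokinase, was lower in HFD. It had 322 UMIs in 286 CD cells and 89 UMIs in 83 HFD cells, 26.2 and 11 CPM, so CD was 2.38-fold higher (log2 -1.25, -1.61 to -0.91). In Lyve1+ cells it went from 36.1 to 11.6 CPM (log2 -1.64, -2.47 to -0.90), in Ccr2+ cells from 18.6 to 9.71 CPM (log2 -0.94) and in Trem2+ cells from 29.0 to 10.8 CPM (log2 -1.42). In the *Lyz1* class the interval reached 0, at -0.55 (-1.14 to 0.03). After thinning, *Pfkfb3* was at -1.54 (-2.27 to -0.86) over all cells and -1.39 (-2.87 to -0.09) in Ccr2+ cells. The thinned intervals included 0 in Lyve1+ cells, at -0.60 (-2.17 to 0.72) from 26 and 6 UMIs. They also did in Trem2+ cells, at -0.65 (-3.90 to 1.63) from 9 and 2 UMIs. *Pfkfb4* was at 19.0 and 19.8 CPM, so *Pfkfb3* fell from 58.0% to 35.7% of the UMIs of both. *Pdk1*, a kinase that shuts pyruvate out of the citric acid cycle and a HIF target, went from 7.73 to 5.07 CPM (log2 -0.61, -1.17 to -0.07). *Pfkm* went from 35 to 10 UMIs (2.85 to 1.24 CPM) and *Eno3* from 71 to 24 UMIs (5.78 to 2.97 CPM). *Bnip3* was at 21.0 and 15.3 CPM (log2 -0.45) and *Hk3* at 24.1 and 16.2 CPM (log2 -0.57), both short of 1.5-fold.

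The abundant enzymes moved less. *Aldoa* was 1.35-fold and *Eno1* 1.33-fold higher in HFD, *Pgk1* 1.25-fold, *Pgam1* 1.24-fold and *Pkm* 1.20-fold, while *Gapdh* was lower, with CD 1.26-fold above HFD (log2 -0.33, -0.39 to -0.26). Without *Gapdh*, the summed log2 ratio of the set was 0.23 in place of 0.14. *Hk1*, *Gpi1*, *Aldoc*, *Pfkfb4*, *Hk2*, *Slc16a1*, *Egln1*, *Mxi1*, *P4ha1*, *Tpi1* and *Ldhb* had intervals that included 0. *Ldha* was 1.09-fold and *Pfkp* 1.12-fold higher in HFD, and *Bnip3l* was 1.12-fold higher in CD.

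Within classes the counts of members past 1.5-fold with such an interval were small. In Lyve1+ cells 1 of 27 members was higher in HFD (*Hif1a*; 4.88% of all genes) and 2 lower (*Pfkfb3* and *Eno3*; 5.17%). In Ccr2+ cells 4 of 32 were higher (*Vegfa*, *Ddit4*, *Pfkl* and *Slc16a3*; 3.72%) and 1 lower (*Pfkfb3*; 8.04%). In the *Lyz1* class 3 of 30 were higher (*Vegfa*, *Pfkl* and *Egln1*; 4.12%) and 0 lower (5.51%). In Plac8+ cells 1 of 15 was higher (*Pgk1*, from 33 to 76 UMIs; 3.86%) and 0 lower (4.96%). The summed log2 ratios were 0.08 in Lyve1+, 0.09 in Ccr2+, 0.05 in the *Lyz1* class and -0.05 (-0.17 to 0.08) in Plac8+ cells. These small differences depended on depth and class: after thinning they were 0.0069, 0.0026, -0.029 and -0.61, and in cells of a single class -0.065, -0.11, 0.15 and -0.61. The Plac8+ values rested on 16 CD and 43 HFD cells after thinning, and on 6 and 10 cells of a single class. The single *Lyz1* class held 14 and 55 cells.

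Of the 5 classes, Trem2+ cells had the widest difference between diets in the summed share as counted. After thinning, and in cells of a single class, Plac8+ cells differed more, in the other direction. Those Plac8+ values came from 16 CD and 43 HFD cells, and from 6 and 10 cells, so they do not rank the classes. The Trem2+ share was 0.230% in 638 CD cells and 0.304% in 168 HFD cells (log2 0.40, 0.34 to 0.46). In this class erythroid markers summed to 1516 CPM in CD and 15.1 CPM in HFD, and cycling markers to 39.8 and 8.64 CPM; without the cells that held a UMI of another cell type's markers, erythroid ones included, the log2 ratio was 0.39. Of 26 members, 7 were higher in HFD (6.61% of all genes) and 2 lower (9.75%). The 7 included 5 enzymes from aldolase to lactate dehydrogenase. *Aldoa* went from 193 to 345 CPM (1.79-fold), *Pkm* from 212 to 373 CPM (1.76-fold), *Eno1* from 261 to 450 CPM (1.73-fold), *Pgk1* from 99.9 to 154 CPM (1.55-fold) and *Ldha* from 237 to 356 CPM (1.5-fold). *Slc16a3* and *Hif1a* made up the rest, and *Pfkfb3* and *Egln1* were lower. Within the CD library these enzymes were a little below the other cells in Trem2+ cells, and within the HFD library above them; *Aldoa*, for example, was at 193 against 217 CPM in CD and 345 against 277 CPM in HFD. With cells thinned to 1000 UMIs and the class set anew, HFD over CD in Trem2+ cells was 1.03 on the log2 scale for *Aldoa* (0.17 to 1.86) and 1.05 for *Eno1* (0.21 to 1.87), but 0.12 for *Pkm* (-0.88 to 1.04), and the intervals of *Pgk1*, *Ldha* and *Hif1a* included 0.

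The Trem2+ class did not hold the same mix of cells in the libraries. In CD 60.5% of it was also Lyve1+, and in HFD 19.0%. In the *Lyz1* class as well were 15.8% of it in CD and 27.4% in HFD. Its check list (*Cd9*, *Gpnmb*, *Lpl*, *Spp1*, *Cd63* and *Fabp5*) summed to 1277 CPM in CD and 2873 CPM in HFD. Over all kept cells the list was at 1264 and 1342 CPM, so in CD the Trem2+ class was not enriched for it. In Trem2+ cells without a *Lyve1* UMI, 252 in CD and 136 in HFD, the summed log2 ratio was 0.31 (0.24 to 0.38), and *Aldoa* (log2 0.72), *Eno1* (0.71) and *Hif1a* (0.59) were still past 1.5-fold, as was *P4ha1* (1.12), a collagen prolyl hydroxylase. *Pkm* (0.54), *Ldha* (0.48) and *Pgk1* (0.47) were below it, and *Slc16a3* (0.82), *Egln1* (-1.0) and *Pfkfb3* (-0.78) had intervals that included 0. The part of the mix of cells in the remaining difference was not tested.

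A wider list of 69 pathway genes outside the set gave 54 with at least 20 UMIs, of which 4 were higher in HFD and 3 lower by the same rule, beside 4.49% and 9.04% of all genes. Of other glycolysis and pyruvate genes, 2 of 21 were higher and 2 lower. *Slc2a6*, a lysosomal sugar carrier, went from 20.3 to 33.4 CPM. *Pdk4*, a pyruvate dehydrogenase kinase that fatty acids are known to induce, went from 4.15 to 14.6 CPM (3.51-fold) and was higher in Lyve1+, Ccr2+, *Lyz1*-class and Trem2+ cells, with log2 ratios of 1.64, 1.93, 1.67 and 2.06. *Slc2a8*, an intracellular glucose carrier, went from 15.2 to 6.93 CPM, and *Gpd1* was the other lower gene. None of the 7 pentose phosphate genes was past 1.5-fold, with a median log2 ratio of 0.11. Of 9 HIF pathway parts, *Epas1* (HIF-2α) alone was lower, from 48 to 12 UMIs. Of 17 other HIF targets, 2 were higher and 0 lower, with a median of 0.32. *Hilpda*, an inhibitor of lipid droplet breakdown that both hypoxia and fatty acids are known to induce, went from 27.8 to 65.3 CPM (2.35-fold). It went from 16.8 to 69.0 CPM in Lyve1+, 27.5 to 56.0 CPM in Ccr2+ and 35.7 to 71.2 CPM in *Lyz1*-class cells. In Trem2+ cells it went from 31.2 to 143 CPM, and in Plac8+ cells the interval of its log2 ratio included 0 (-0.41 to 2.40).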

How the data were processed

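Droplet 3′ RNA libraries of epididymal ATMs, 1 of 3 pooled CD mice and 1 of 3 pooled HFD mice, were used. The matrices that the authors deposited hold raw counts: whole UMIs for each gene in each barcode, from reads aligned to mm10 by Cell Ranger 3.0.2. Samples were grouped by their labels. Work was done in numpy 2.4.6, pandas 2.3.3 and scipy 1.17.1 under Python 3.11.15, and figures were drawn with matplotlib 3.10.9. Cells with 200 to 3500 genes and at most 10% mitochondrial UMIs were kept, with 12284010 UMIs in CD and 8086475 in HFD; doublets were not called. Rows of a symbol were summed: *Aldoa* has 2 identifiers, of which 1 had all the UMIs.

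UMIs were summed over cells and divided by the total (CPM). Levels had exact Poisson, shares exact Clopper-Pearson and ratios exact conditional binomial intervals at 95%, for counting error only. Cells are not replicates, so no p-value was computed. A gene was called at 1.5-fold with an interval that left out 1 and at least 20 UMIs. On simulated counts of 11004 genes for HFD against CD, with 200 changed 2-fold, 95.7% of intervals held the true ratio. Among the changed genes, not all 200 of which were counted, 92.7% were called, and 1.02% of the others were. With 1 library per diet, these rates do not speak to differences between mice or libraries.

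The members, classes and lists were chosen with earlier results of these data known. Full values were given for members called between diets or in a class in both libraries, and for the main member of each step; pathway genes were named if called with at least 100 UMIs, and *Gpd1* and *Epas1*, named below that, were chosen after their values were seen, as were *Egln2* and class ratios of *Hif1a*, *Pfkfb3*, *Slc2a1* and *Pfkl* and thinned values. Alternatives changed the total, depth, mitochondrial limit, gene limit, class rule, UMI minimum and marker-bearing cells. Those on shared barcodes, on a narrower marker list, on cells of 1 class between diets, on Trem2+ cells without *Lyve1* and on the cell with the most UMIs of a gene were added after seeing the data. Clustering, trajectories and the other experiments of the study were not used here. The values of 1 gene of the wider pathway list are not reported here.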

Additional observations from a re-analysis of the deposited data

Results flagged for a closer look

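At full depth, *Egln1*, a prolyl hydroxylase that marks HIF-1α, went in opposite directions between diets in different cells. In the *Lyz1* class it was higher in HFD, with 93 and 139 UMIs in CD and HFD (19.5 and 30.2 CPM, log2 0.63), and in Trem2+ cells it was lower, with 93 and 7 UMIs (25.7 and 7.56 CPM, log2 -1.76). The difference between the classes was not tested, and the HFD value in Trem2+ cells rests on 7 UMIs. In Trem2+ cells without a *Lyve1* UMI the log2 ratio was -1.0 (-2.44 to 0.23). After thinning it was -0.92 (-3.82 to 1.98) in the *Lyz1* class, from 3 UMIs in each library. In Trem2+ cells it was then 1.52 (-4.77 to 7.82), from 1 UMI in each. The opposite directions were thus not seen at that depth, where the counts are too few to read.

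The summed share of the 33 genes in Trem2+ cells was below that of the other cells in CD (log2 -0.17) and above it in HFD (log2 0.16). This difference between the libraries was not tested. In CD, 386 of 638 Trem2+ cells also had a *Lyve1* UMI, and in HFD 32 of 168 did. The *Lyz1* class held 101 of the CD and 46 of the HFD Trem2+ cells.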

How the results depend on the processing

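Of the summed shares and member counts under the alternatives, 36 kept their direction and stayed near the reported value, 40 moved and 5 turned; for single members 144 stayed, 14 moved and 2 turned. No paired analysis was possible because each diet is 1 library of pooled mice. All values here are log2 ratios unless named as counts, and the causes of the moves were not tested. The HFD over CD ratio of all cells (0.14) was 0.19 with mitochondrial, ribosomal and the 20 most abundant genes out of the total, 0.11 with a mitochondrial limit of 5% and also with the study's upper gene limit, 0.047 as a mean over cells and 0.23 without *Gapdh*. Thinning to 1000 UMIs gave 0.0069 in Lyve1+, 0.0026 in Ccr2+, -0.029 in the *Lyz1* class, -0.61 in Plac8+ and 0.52 in Trem2+ cells. Cells of only 1 class gave -0.065 in Lyve1+, -0.11 in Ccr2+, 0.15 in the *Lyz1* class and -0.61 in Plac8+ cells. Plac8+ cells numbered 16 in CD and 43 in HFD after thinning, and 6 and 10 with only 1 class. Without cells that held other cell types' markers, Lyve1+ cells gave -0.013 and Plac8+ cells 0.26, and with the narrower marker list Plac8+ cells gave 0.13. The other total gave 0.14 in Ccr2+ cells, and Trem2+ cells without *Lyve1* gave 0.31.

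For a class over the other cells, thinning gave -0.48 in Lyve1+ cells of HFD, 0.30 and 0.14 in Ccr2+ cells of CD and HFD, 0.66 and 0.57 in the *Lyz1* class, 0.97 in Plac8+ cells of CD and -0.23 in Trem2+ cells of CD. Cells of only 1 class against cells of none gave, in CD and HFD, -0.064 and -0.10 for Lyve1+, 0.54 and 0.45 for Ccr2+, 0.91 and 1.08 for *Lyz1*, 0.97 and 0.39 for Plac8+, and 0.13 and 0.52 for Trem2+ cells. The *Lyz1* values rested on 14 and 55 cells of that class and the Plac8+ values on 6 and 10. With class limits of 2 UMIs, or 20 for *Lyz1*, the ratio was -0.57 in Lyve1+ and 0.24 in Ccr2+ cells of HFD, 0.54 and 0.36 in Plac8+ cells and -0.039 and 0.33 in Trem2+ cells. The members past 1.5-fold numbered 3 higher and 2 lower with a minimum of 100 UMIs, and 2 higher after thinning. Those 2 were *Hif1a* (0.68) and *Slc16a1* (0.76, -0.33 to 1.88), and *Slc16a1* was not called at full depth. *Pfkfb3* (-1.54), *Eno3* (-1.67) and *Pdk1* (-0.79, -1.96 to 0.29) were past it in the lower direction after thinning. The share of all genes is not given for these settings, so the counts are no result about the members. *Hk3* turned to 0.083 and *Ddit4* to -0.60 after thinning. Removing the most abundant genes from the total raised every ratio by 0.048. Of the 10 members called, *Slc2a1*, *Pfkm*, *Pfkfb3*, *Eno3*, *Hif1a* and *Vegfa* stayed past 1.5-fold under all 4 alternatives tried for single genes, *Pfkl* and *Ddit4* under 3, and *Slc16a3* and *Pdk1* under 2. This counts the ratio alone, without the interval or the minimum of 20 UMIs. After thinning, *Pfkm* had 5 and 2 UMIs (interval -4.32 to 1.69), *Slc2a1* 4 and 13, and *Vegfa* 5 and 13, each under that minimum.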

Other observations

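Barcodes left out for more than 10% mitochondrial UMIs, 2043 in CD and 1120 in HFD, had a summed share of the 33 genes of 0.148% (0.143 to 0.153) in CD and 0.159% (0.151 to 0.167) in HFD, with medians of 896 and 739 UMIs. As a share of their UMIs outside mitochondrial genes, the values were 0.186% and 0.192%. Kept cells of no class, 260 in CD and 516 in HFD, stood at 0.185% and 0.182% of all UMIs, with medians of 2166 and 1223 UMIs.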
